A study of Mus musculus with 12 samples.

Results

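The solute carrier (SLC) superfamily was described here as 181 mouse genes, of 32579 genes listed in the tables of either cell line. Members were protein-coding genes whose symbol begins with Slc and a digit and which reached at least 1 FPKM (fragments per kilobase of exon, scaled to the library total) in at least 3 libraries of either line. Of 371 such symbols in the annotation, 347 had values in at least 1 table, 160 stayed below that level, and 6 that met it (Slc7a11, Slc7a5, Slc3a2, Slc37a4, Slc40a1 and Slc11a2) were left out by name. Members were chosen by their FPKM over DEP and DMSO libraries together, so levels are given as a description. Just inside it stood Slc1a3, Slc16a13, Slc26a6 and Slc6a19, which held at least 1.02, 1.05, 1.10 and 1.15 FPKM in 3 libraries. Just outside it stood Slc18a2, Slc26a10, Slc25a53 and Slc24a5, at 0.968, 0.948, 0.943 and 0.890 FPKM. The level was met in both lines by 136 members, in AML12 alone by 20 and in iWAT alone by 25.

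RNA was sequenced from AML12, an immortalised mouse hepatocyte line, and from iWAT, which the labels call a mouse white adipocyte line. Each line had 3 libraries of cells exposed to diethyl phthalate (DEP) at 50 µM for 48 h from confluence and 3 DMSO libraries. DEP is a short-chain phthalate ester used as a plasticizer and fragrance solvent. DMSO, a common solvent vehicle, is named in the sample titles only, while the treatment labels give medium with or without DEP. The medium was DMEM/F12 for AML12 and DMEM for iWAT, and no label says that replicates were separate cultures, so the p-values cover the spread among libraries, which may be technical.

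Solute carriers move small molecules across membranes, either down a gradient or coupled to sodium, protons or a counter-solute, and families are numbered by sequence likeness. Hepatocytes use them to exchange glucose, amino acids, bile acids, metals and drugs with the blood, and adipocytes to take up glucose and fatty acids. A large family, Slc25, sits mostly in the inner mitochondrial membrane and links the matrix to the cytosol, while other families serve the lysosome and the Golgi. The 181 members were sorted into 13 classes by substrate or site, and 4 of them (Slc9a3r1, Slc9a3r2, Slc4a1ap and Slc7a6os) carry the symbol of a neighbour or partner and are not carriers.

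Libraries held 42845105 to 54585089 reads, as recovered from the FPKM (the sources used here do not say whether 1 such unit is a read or a read pair), with more in DEP than in DMSO libraries in AML12 and fewer in DEP than in DMSO libraries in iWAT. Hepatocyte markers were partly present in AML12: Alb, serum albumin, had 32.0 FPKM with DEP, against 25.9 FPKM with DMSO, while Slc10a1 and Slc27a5, the bile acid importer and bile acid ligase of mature hepatocytes, reached at most 0.0399 and 0.04997 FPKM in any AML12 library. The 10 markers of mature fat cells summed to 16.85 to 17.98 FPKM with DEP and 20.03 to 21.29 FPKM with DMSO in iWAT. Of 3 tested, Lpl (lipoprotein lipase) fell, at 6.38 ± 0.242 FPKM with DEP, against 8.46 ± 0.200 FPKM with DMSO, and Pparg and Fabp4 were not called. Adipoq (adiponectin) and Plin1 (perilipin), which define the type, reached at most 0.0303 and 0.0175 FPKM in any iWAT library. Summed over the 18 hepatocyte markers, AML12 held 585 to 598 FPKM with DEP and 520.4 to 530.4 FPKM with DMSO, and 5 of 7 tested rose while 1 fell. The 7 cholangiocyte markers, which share the epithelial keratins, summed to 1888 to 1891 FPKM with DEP and 1696 to 1711 FPKM with DMSO in AML12. Summed over 6 myofibroblast markers, iWAT held 158 to 166 FPKM with DEP and 209 to 216 FPKM with DMSO, and all 4 tested fell. The 7 adipose progenitor markers summed to 50.7 to 51.9 FPKM with DEP and 77.5 to 80.1 FPKM with DMSO in iWAT, where both tested fell. Ptprc, the pan-leukocyte surface antigen, reached at most 0.0255 FPKM in AML12, where the leukocyte list summed to 4.38 to 4.79 FPKM with DEP and 10.7 to 12.04 FPKM with DMSO through Cd68, a lysosomal protein of macrophages. Of all genes tested 23.9% were called up and 15.3% down in AML12, and 4.03% up and 4.52% down in iWAT. In bulk RNA, fewer cells of a type and less RNA per cell cannot be told apart, and the part of these marker shifts in the results was not tested.

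Promoters of 4 members with opposite, shared or deep responses are shown so that their sequence can be read beside their values. Each runs from 250 bases before to 50 bases after the start site, 5′ to 3′ on the gene's strand, from RefSeq on GRCm38.p6, and capitals mark matches to TGATGNAA (the core of the C/EBP-ATF composite element), TGANNNNGC (the core of the antioxidant response element), ACGTG (the core of E-box and hypoxia elements) or GGGCGG (the GC box) on either strand. Slc1a4 was lower in AML12 and higher in iWAT, Slc22a18 had the deepest fall among carriers above 10 FPKM in AML12, Slc19a2 rose in both lines and Slc50a1 fell in both.
Slc1a4, chr11:20332664-20332963, minus strand: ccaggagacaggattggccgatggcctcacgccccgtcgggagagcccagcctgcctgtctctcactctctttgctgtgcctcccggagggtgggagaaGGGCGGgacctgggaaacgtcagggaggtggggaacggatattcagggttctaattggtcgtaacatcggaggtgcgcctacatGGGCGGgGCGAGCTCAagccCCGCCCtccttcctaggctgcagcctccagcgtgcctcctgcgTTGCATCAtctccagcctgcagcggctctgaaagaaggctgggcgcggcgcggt
Slc22a18, chr7:143473539-143473838, plus strand: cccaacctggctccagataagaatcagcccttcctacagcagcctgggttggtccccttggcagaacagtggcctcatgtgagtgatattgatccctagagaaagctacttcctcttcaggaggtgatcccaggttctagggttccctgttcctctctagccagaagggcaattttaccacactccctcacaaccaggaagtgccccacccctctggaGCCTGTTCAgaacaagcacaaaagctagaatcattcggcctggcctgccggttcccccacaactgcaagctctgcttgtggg
Slc19a2, chr1:164248796-164249095, plus strand: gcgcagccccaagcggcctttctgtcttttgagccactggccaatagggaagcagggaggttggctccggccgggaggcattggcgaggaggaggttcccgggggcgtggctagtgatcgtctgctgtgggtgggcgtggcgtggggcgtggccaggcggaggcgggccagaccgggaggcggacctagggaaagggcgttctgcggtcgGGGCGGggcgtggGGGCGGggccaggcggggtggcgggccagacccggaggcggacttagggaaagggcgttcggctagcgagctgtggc
Slc50a1, chr3:89270521-89270820, minus strand: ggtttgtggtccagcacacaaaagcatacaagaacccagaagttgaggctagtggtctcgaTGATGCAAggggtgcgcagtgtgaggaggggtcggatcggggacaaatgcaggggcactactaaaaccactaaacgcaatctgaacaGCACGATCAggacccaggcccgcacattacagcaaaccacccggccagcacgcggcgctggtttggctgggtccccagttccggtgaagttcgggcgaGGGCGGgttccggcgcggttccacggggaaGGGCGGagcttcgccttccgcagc
The Slc1a4 window held 1 TGATGNAA, 1 TGANNNNGC and 3 GGGCGG. Its TGATGNAA match, on the reverse strand, begins 4 bases before the start site and runs across it. The Slc22a18 window held 1 TGANNNNGC and the Slc19a2 window 2 GGGCGG, while the Slc50a1 window held 1 TGATGNAA, 1 TGANNNNGC and 2 GGGCGG, and none of the 4 held ACGTG. TGATGNAA was present in 3.97% of 32851 mouse promoter windows and in 3.05% of the 197 windows matched to 142 members. The shares were 41.3% and 52.8% for TGANNNNGC, 19.6% and 27.4% for ACGTG and 35.7% and 67.5% for GGGCGG, again over all windows first and member windows second. These matches describe letters only and were not tested for binding.

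Carriers of the inner mitochondrial membrane were the most abundant members in both lines. Slc25a5 and Slc25a4, the ADP/ATP carriers, ranked first and second in each line, with Slc25a5 at 519 ± 7.15 FPKM with DEP, against 474 ± 1.88 FPKM with DMSO (SD, n = 3 each) in AML12. In iWAT Slc25a5 averaged 249 ± 4.41 FPKM with DEP, against 244 ± 4.79 FPKM with DMSO. Processed pseudogenes of Slc25a5 exist, and FPKM cannot show how reads were divided with them. AML12 had 4 members above 100 FPKM, with Slc25a39 (glutathione import) and Slc25a3 (phosphate) beside these 2, and iWAT had 2. The median level of members that met the level was 8.10 FPKM in AML12 and 8.63 FPKM in iWAT, and the 5 highest members took 32.7% and 24.1% of the summed member FPKM. Members together took 0.979 to 0.996% of all FPKM with DEP and 0.970 to 0.985% with DMSO in AML12. In iWAT they took 1.002 to 1.01% with DEP and 0.970 to 0.981% with DMSO. The tables were normalised separately, so levels of the lines stand side by side without a test.

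**Figure D1:**
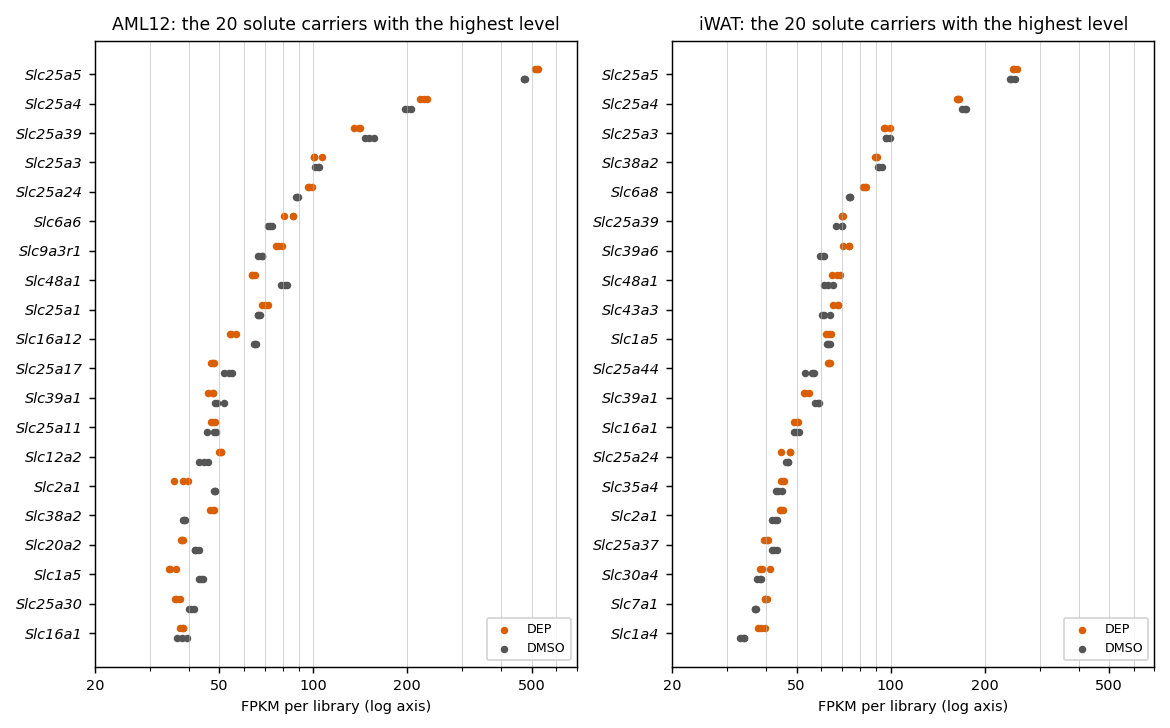
FPKM per library (log axis) of the 20 members with the highest level in AML12 (left) and iWAT (right), DEP libraries drawn above DMSO libraries for each gene. Slc25a5 leads both panels, Slc38a2, Slc6a8 and Slc39a6 stand high in iWAT, and Slc6a6 and Slc9a3r1 stand high in AML12.

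Several carriers typical of liver in the animal were below the level in AML12. Slc2a2 (GLUT2, the liver glucose carrier) reached at most 0.668 FPKM and Slc27a2 (a fatty acid carrier and acyl-CoA synthetase) at most 0.0212 FPKM in any AML12 library. Slc16a3, the lactate exporter MCT4, reached at most 0.0702 FPKM in AML12 and 0.461 FPKM in iWAT. Slc46a3, a lysosomal carrier, reached at most 0.114 FPKM in AML12 and 0.722 FPKM in iWAT. Slc2a1 (GLUT1) was the highest sugar carrier of AML12.

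With DEP, called falls outnumbered called rises in 7 of the 13 classes of AML12, among them amino acid carriers (7 down and 3 up of 18 tested), metal and heme carriers (7 and 1 of 21), sugar carriers (4 and 1 of 7) and organic ion carriers (4 and 0 of 9). Rises outnumbered falls among nucleoside carriers (3 up and 1 down of 4) and ion carriers (6 and 3 of 18). By limma with Benjamini-Hochberg adjustment over all genes tested, 79 of 162 tested members were called at an adjusted p below 0.05, 33 of them up and 46 down, and 29 up and 52 down after median centring. The other 19 members were below the filter of 0.5 FPKM in 3 libraries or, for Slc39a8, not analysed. Over all 12929 genes tested, 39.2% were called, 23.9% up and 15.3% down. Metal and heme (38.1%), monocarboxylate (33.3%) and vitamin carriers (14.3%) were called below that share. Organic ion (44.4%) and fatty acid and choline carriers (42.9%) were not far above it. Members together were called in 48.8% of cases, above the 39.2% of all genes, and more of them fell than rose. These shares are not fully alike, since members had to reach 1 FPKM in a line and all genes tested only 0.5 FPKM. With a filter of 1 FPKM for both, 78 of 156 members were called, 33 up and 45 down. At that filter 5029 of 11502 genes were called, 3083 up and 1946 down. The median log2 fold change was -0.02 for members and 0.03 for all genes tested. After TPM scaling, which sets every library to the same FPKM sum, 33 members were called up and 40 down. The medians were then 0.0065 for members and 0.0603 for all genes tested. On the log2(FPKM + 1) scale of the test, which understates change at low FPKM, the median size among called members was 0.22 (0.23 among all called genes), 7 of the 79 reached 0.5 and 0 reached 1. By the ratio of mean FPKM, 1 of the 79 changed by more than 2-fold, Slc28a3, at -62.0% with DEP relative to DMSO. Slc28a3 met the member level through its DMSO libraries only, so this fall, 1 of the 46, was built into the choice of members. DEP and DMSO libraries did not overlap in any of the 79. Among tested members DEP libraries lay wholly above DMSO libraries in 37 and wholly below in 56, while 52.0% of all genes tested did not overlap, 31.6% with DEP above and 20.4% with DEP below. Every library could be left out in turn without ending the call of 65 of the 79, of which 27 rose and 38 fell.

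**Figure D2:**
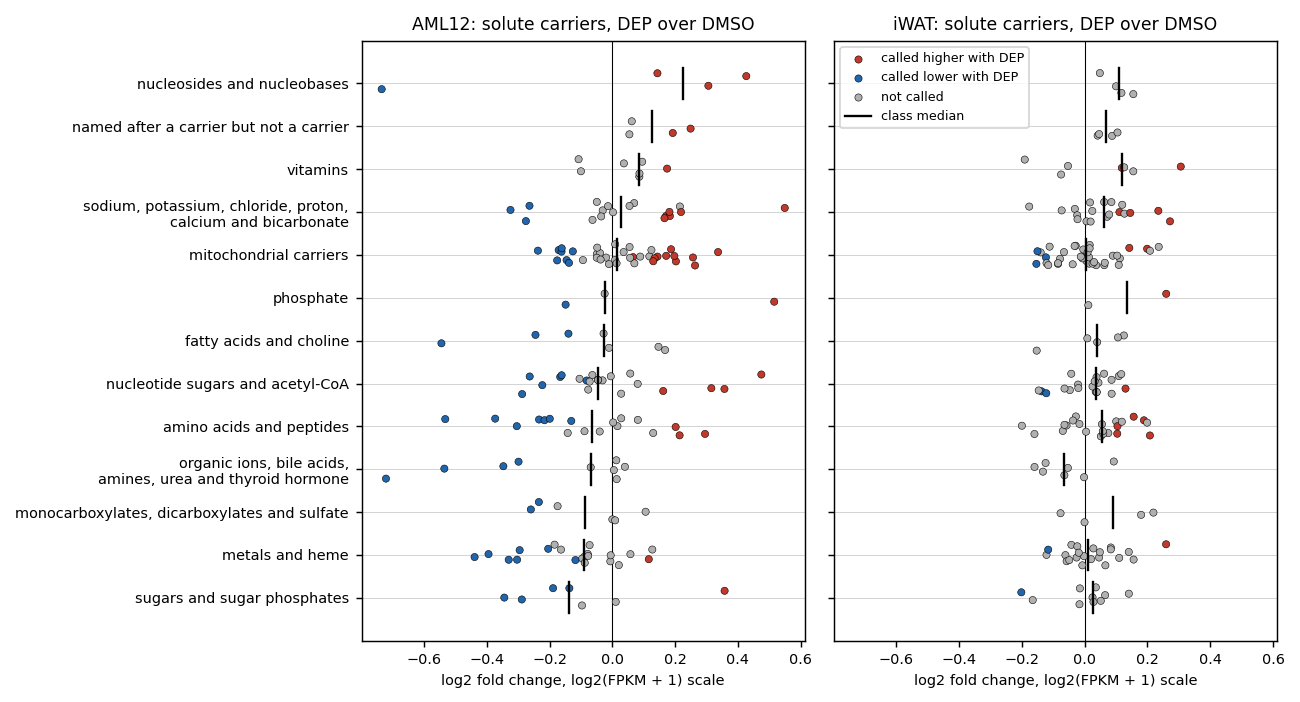
Log2 fold change of DEP over DMSO on the log2(FPKM + 1) scale for every tested member, by class (rows, ordered by the AML12 median), in AML12 (left) and iWAT (right). In AML12 organic ion, fatty acid and choline and monocarboxylate carriers hold called falls without called rises, and in iWAT amino acid, ion and vitamin carriers hold called rises without called falls.

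Amino acid carriers of AML12 fell more often than they rose, with 7 down and 3 up of 18 tested and a class median of -0.06. Slc1a4 (ASCT1), an exchanger of serine, alanine and cysteine, had 26.8, 26.8 and 26.2 FPKM in DEP libraries, against 39.2, 38.8 and 38.6 FPKM in DMSO libraries. The DEP libraries all lay below the DMSO libraries, and the fall passed the test (log2 fold change -0.53 ± 0.02, adjusted p = 1.33e-05; ± is the standard error here and below). Slc1a5 (ASCT2), the glutamine exchanger of the same family, had 34.7, 36.3 and 34.4 FPKM in DEP libraries, against 43.0, 43.7 and 44.3 FPKM in DMSO libraries. It fell without overlap (log2 fold change -0.30 ± 0.03, adjusted p = 0.000275). Slc6a9 (GlyT1), a sodium-coupled glycine importer, had 6.10, 7.11 and 7.03 FPKM in DEP libraries, against 9.06, 8.70 and 9.29 FPKM in DMSO libraries, and its highest DEP library stayed below its lowest DMSO library (log2 fold change -0.37 ± 0.06, adjusted p = 0.00266). Slc6a8, the creatine importer, had 22.3 ± 0.153 FPKM with DEP, against 25.7 ± 0.133 FPKM with DMSO (log2 fold change -0.20 ± 0.02, adjusted p = 0.000471). The 3 other falls were in the Slc38 family of neutral amino acid carriers, of 0.23 for Slc38a3, 0.22 for Slc38a7 and 0.13 for Slc38a10 on the log2 scale.

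The other 3 called amino acid carriers of AML12 rose. Slc38a2 (SNAT2), a sodium-coupled carrier of small neutral amino acids and itself a member of the Slc38 family, had 46.8, 47.8 and 47.9 FPKM in DEP libraries, against 38.6, 38.2 and 38.7 FPKM in DMSO libraries. All 3 DEP libraries lay above the DMSO libraries (log2 fold change 0.30 ± 0.02, adjusted p = 9.57e-05). Slc6a6, the taurine importer and highest amino acid carrier of AML12, averaged 84.3 ± 3.04 FPKM with DEP, against 72.5 ± 0.882 FPKM with DMSO (log2 fold change 0.21 ± 0.03, adjusted p = 0.00164). Slc7a6, a light chain for exchange of cationic and neutral amino acids, rose by 0.20 on the log2 scale. Slc7a1 (CAT1), the arginine and lysine carrier, was not called at 13.3 ± 0.212 FPKM with DEP, against 13.0 ± 0.599 FPKM with DMSO (adjusted p = 0.577). Slc7a2, its cytokine-inducible relative, was below the filter in AML12.

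Sugar carriers of AML12 had 4 falls and 1 rise among 7 tested, a median of -0.14 as deposited, -0.17 after median centring and -0.12 after TPM scaling. Slc2a1, the basal glucose carrier, had 35.7, 39.6 and 38.2 FPKM in DEP libraries, against 48.1, 48.4 and 48.3 FPKM in DMSO libraries. Its DEP libraries were lower without overlap, at a mean ratio of 0.784 (log2 fold change -0.34 ± 0.04, adjusted p = 0.000625). Slc50a1 (SWEET1), a sugar uniporter of the Golgi and plasma membrane, had 29.5, 29.5 and 31.2 FPKM in DEP libraries, against 37.6, 38.3 and 35.0 FPKM in DMSO libraries (log2 fold change -0.29 ± 0.04, adjusted p = 0.00177). Slc2a8, an intracellular hexose carrier, and Slc37a3, of the sugar phosphate exchanger family, fell by 0.19 and 0.14, with adjusted p of up to 0.0697 and 0.0835 without DEP replicate 3 for the first and DMSO replicate 3 for the second. The rise was in Slc5a3 (SMIT1), the sodium-coupled importer of the osmolyte myo-inositol, at 7.32, 6.93 and 7.28 FPKM in DEP libraries, against 5.51, 5.37 and 5.27 FPKM in DMSO libraries (log2 fold change 0.36 ± 0.03, adjusted p = 0.000417). Among monocarboxylate carriers 2 of 6 fell and 0 rose, a share called of 33.3%, against 39.2% of all genes tested. Slc16a12, a carrier of creatine and its precursor guanidinoacetate, had 55.1 ± 1.302 FPKM with DEP, against 65.0 ± 0.259 FPKM with DMSO (log2 fold change -0.23 ± 0.02, adjusted p = 0.000389), and Slc16a6 fell by 0.26. The lactate carrier Slc16a1 (MCT1) was not called (adjusted p = 0.999), at 37.9 ± 0.443 FPKM with DEP, against 38.0 ± 1.49 FPKM with DMSO.

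Metal and heme carriers of AML12 fell in 7 of 21 cases and rose in 1, with a class median of -0.09. The share called was 38.1%, near the 39.2% of all genes tested, of which 15.3% were called down and 23.9% up. Slc48a1 (HRG1), which carries heme out of the lysosome, was among the 10 most abundant members and had 63.4, 64.9 and 63.8 FPKM in DEP libraries, against 82.2, 81.1 and 78.9 FPKM in DMSO libraries. Its DEP libraries formed a narrow group below the DMSO libraries (log2 fold change -0.33 ± 0.02, adjusted p = 0.000102). Slc39a11, a zinc importer of the ZIP family, had 32.2, 30.7 and 32.3 FPKM in DEP libraries, against 43.5, 43.4 and 43.2 FPKM in DMSO libraries (log2 fold change -0.44 ± 0.03, adjusted p = 5.88e-05). All 10 tested ZIP (Slc39) members had a negative log2 fold change as deposited and after median centring, while after TPM scaling 2 turned positive, and 3 of the 10 were called. The other called ZIP members were Slc39a4 (fall of 0.30), the intestinal-type zinc importer, and Slc39a14 (fall of 0.12, adjusted p = 0.0130), which also takes up iron and manganese, and whose adjusted p was 0.0540 after TPM scaling. Of the 6 tested zinc exporters (Slc30), 0 were called by limma, 2 had an unadjusted p below 0.05 and 2 were called by voom, both down. Over all genes voom called 5594 of 12914 in AML12, 2336 of them down. Slc30a1 averaged 2.07 ± 0.150 FPKM with DEP, against 2.27 ± 0.221 FPKM with DMSO.

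Magnesium and copper carriers of AML12 were lower too, with an exception. Slc41a3, a mitochondrial magnesium exporter, had 2.64, 2.65 and 2.85 FPKM in DEP libraries, against 3.87, 3.68 and 4.11 FPKM in DMSO libraries (log2 fold change -0.39 ± 0.05, adjusted p = 0.00118). Slc41a1, the plasma membrane magnesium exporter, fell by 0.30. Slc31a1 (CTR1), the copper importer, had 24.4, 24.4 and 24.4 FPKM in DEP libraries, against 28.1, 28.1 and 28.6 FPKM in DMSO libraries, and all DEP libraries were lower (log2 fold change -0.20 ± 0.02, adjusted p = 0.000441). Slc31a2, its relative in endosomes, was the class's rise at 9.40 ± 0.247 FPKM with DEP, against 8.60 ± 0.194 FPKM with DMSO (log2 fold change 0.12 ± 0.03, adjusted p = 0.0270), and its call ended without DEP replicate 1 or 3 or DMSO replicate 2 or 3 (adjusted p between 0.0654 and 0.0832), after median centring (0.0908) and by voom (0.144).

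Carriers of organic ions held some of the deepest falls in AML12, with 4 down and 0 up of 9 tested. Slc22a18, an orphan organic cation carrier from an imprinted gene cluster, had 11.7, 11.3 and 11.1 FPKM in DEP libraries, against 19.4, 19.1 and 19.6 FPKM in DMSO libraries. Every DEP library held less than every DMSO library, and the mean ratio was 0.586 (log2 fold change -0.72 ± 0.03, adjusted p = 1.17e-05). Slc17a5 (sialin), which exports sialic acid from the lysosome, had 7.50, 7.50 and 6.79 FPKM in DEP libraries, against 11.2, 10.4 and 11.3 FPKM in DMSO libraries (log2 fold change -0.54 ± 0.05, adjusted p = 0.000297). Slc22a23, another orphan of the Slc22 family, had 17.6 ± 0.257 FPKM with DEP, against 22.6 ± 0.595 FPKM with DMSO (log2 fold change -0.35 ± 0.03, adjusted p = 0.000174). Slc22a4 (OCTN1), the ergothioneine carrier, fell by 0.30, while Slc10a3, an orphan of the bile acid carrier family and the most abundant of this class in iWAT, was not called in AML12 (4.19 ± 0.353 FPKM with DEP, against 4.15 ± 0.371 FPKM with DMSO). All 4 tested Slc22 members were negative as deposited and under both other scalings. Fatty acid and choline carriers had 3 falls and 0 rises among 7. Slc44a3, of the choline carrier-like family, had 11.3, 11.01 and 11.6 FPKM in DEP libraries, against 16.5, 17.2 and 17.2 FPKM in DMSO libraries (log2 fold change -0.54 ± 0.03, adjusted p = 4.92e-05). Slc44a1, the choline carrier itself, fell by 0.14. Slc27a1 (FATP1), a fatty acid carrier, had 2.58 ± 0.0933 FPKM with DEP, against 3.25 ± 0.183 FPKM with DMSO (log2 fold change -0.24 ± 0.05, adjusted p = 0.00795), while its relative Slc27a4 was not called at 8.52 ± 0.316 FPKM with DEP, against 8.71 ± 0.493 FPKM with DMSO.

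**Figure D3:**
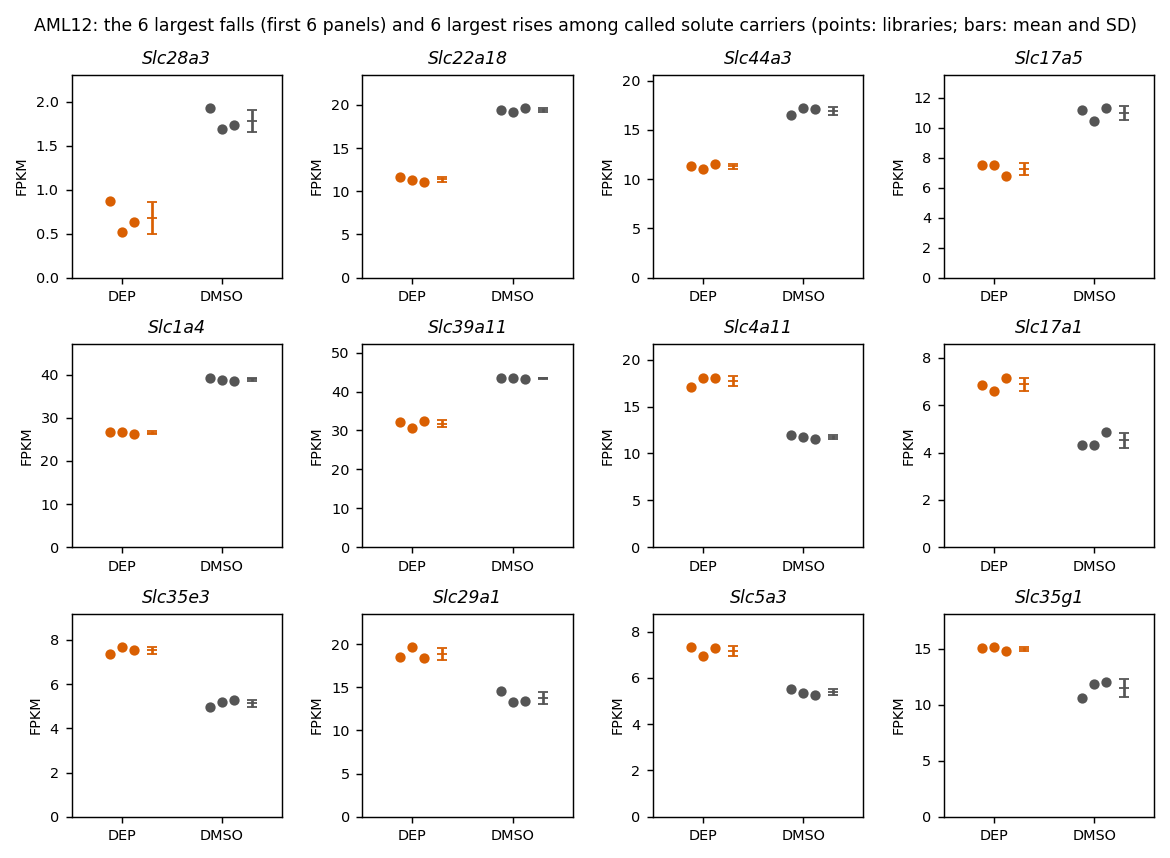
FPKM (y axis, from 0) in each AML12 library for the 6 called members with the largest falls and the 6 with the largest rises in log2 fold change, DEP left of DMSO, with mean and SD beside the points. Groups do not overlap in any panel, which for Slc28a3 follows from how it met the member level. The DEP libraries of Slc22a18 lie between 11.1 and 11.7 FPKM, against 19.1 to 19.6 FPKM in DMSO libraries.

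Among nucleoside carriers of AML12 all 3 tested Slc29 members were called, each up, while 39.2% of all genes tested were called and 23.9% were up. Slc28a3, the other tested member, was also called, but its direction was set by how it met the member level. Slc29a1 (ENT1), the main equilibrative nucleoside carrier, had 18.5, 19.6 and 18.4 FPKM in DEP libraries, against 14.6, 13.3 and 13.4 FPKM in DMSO libraries. It rose without overlap (log2 fold change 0.43 ± 0.04, adjusted p = 0.000457). Slc29a2 (ENT2), which also carries nucleobases, had 4.01, 4.28 and 4.40 FPKM in DEP libraries, against 3.25, 3.21 and 3.22 FPKM in DMSO libraries (log2 fold change 0.31 ± 0.04, adjusted p = 0.00171), and the lysosomal Slc29a3 (ENT3) rose by 0.14 (adjusted p = 0.0528 without DMSO replicate 3). The concentrative, sodium-coupled Slc28a3 (CNT3) went the other way with 0.875, 0.516 and 0.638 FPKM in DEP libraries, against 1.92, 1.69 and 1.73 FPKM in DMSO libraries (log2 fold change -0.73 ± 0.09, adjusted p = 0.00110). Slc28a3 met the member level through its DMSO libraries only, so it had to differ in this direction and its p carries no weight. Its DEP libraries held 366, 201 and 253 reads against 702, 609 and 586 in DMSO libraries.

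Mitochondrial carriers of AML12 moved both ways, 11 up and 8 down of 37 tested, against 8 and 8 after median centring and 11 and 5 after TPM scaling. Slc25a5 rose to 526, 512 and 519 FPKM in DEP libraries, against 474, 472 and 476 FPKM in DMSO libraries (log2 fold change 0.13 ± 0.02, adjusted p = 0.00194). Slc25a4 rose with it, at 226 ± 6.17 FPKM with DEP, against 200.3 ± 4.22 FPKM with DMSO (log2 fold change 0.17 ± 0.03, adjusted p = 0.00291), while the phosphate carrier Slc25a3 was not called (102 FPKM with DEP, against 103 FPKM with DMSO). Slc25a10, which exchanges succinate and malate for phosphate, had 30.4, 31.0 and 30.5 FPKM in DEP libraries, against 25.6, 24.8 and 25.7 FPKM in DMSO libraries (log2 fold change 0.26 ± 0.02, adjusted p = 0.000273). Slc25a14, an uncoupling protein relative, had 3.12 ± 0.320 FPKM with DEP, against 2.26 ± 0.231 FPKM with DMSO (log2 fold change 0.34 ± 0.08, adjusted p = 0.0138), with an adjusted p of 0.0503 when no filter on low values was set. Slc25a15, the ornithine carrier, rose by 0.26, and Slc25a24, the ATP-magnesium/phosphate carrier, rose by 0.13. Slc25a46, an outer membrane member that acts in mitochondrial fission and lipid transfer, had 12.9 ± 0.422 FPKM with DEP, against 11.1 ± 0.113 FPKM with DMSO (log2 fold change 0.20 ± 0.03, adjusted p = 0.00279).

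The 8 falls among mitochondrial carriers of AML12 were of modest size, from 0.13 to 0.24. Slc25a17, a peroxisomal member that carries cofactors, had the smallest p of the falls, with 47.8, 47.0 and 47.9 FPKM in DEP libraries, against 54.8, 53.7 and 51.7 FPKM in DMSO libraries (log2 fold change -0.16 ± 0.03, adjusted p = 0.00317). Slc25a33, a pyrimidine nucleotide carrier, fell by 0.24 (adjusted p = 0.0638 without DEP replicate 3) and Slc25a39 by 0.13, a call that ended after TPM scaling. Slc25a1, the citrate exporter that feeds lipid synthesis, had 70.0 ± 1.37 FPKM with DEP, against 66.8 ± 0.604 FPKM with DMSO (log2 fold change 0.07 ± 0.02, adjusted p = 0.0470). That rise kept its call without DEP replicate 1 and lost it without each of the other 5 libraries in turn, with adjusted p between 0.0764 and 0.136. The oxoglutarate carrier Slc25a11 and the carnitine carrier Slc25a20 were not called, at 47.7 FPKM with DEP, against 47.4 FPKM with DMSO for the first and 4.48 FPKM with DEP, against 4.28 FPKM with DMSO for the second. Summed over the class, DEP libraries held 1532 to 1546 FPKM and DMSO libraries 1467 to 1476 FPKM.

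Carriers of sodium, potassium, chloride, protons, calcium and anions rose in 6 and fell in 3 of 18 cases in AML12. Slc4a11, a proton and ammonia carrier of the bicarbonate family, had 17.1, 18.1 and 18.01 FPKM in DEP libraries, against 12.01, 11.8 and 11.6 FPKM in DMSO libraries. This was the largest rise of all called members in AML12 on the log2(FPKM + 1) scale (log2 fold change 0.55 ± 0.03, adjusted p = 5.17e-05), while by the ratio of mean FPKM it was second, at 1.503, to Slc17a1, at 1.52. Slc4a2 (AE2), the chloride-bicarbonate exchanger of the bile canaliculus and bile duct, had 9.12 ± 0.347 FPKM with DEP, against 7.69 ± 0.258 FPKM with DMSO (log2 fold change 0.22 ± 0.04, adjusted p = 0.00471). Slc12a2 (NKCC1) and Slc12a4 (KCC1), cation-chloride cotransporters that load and unload chloride, both rose, by 0.17 and 0.18. The falls were in Slc26a2, a sulfate carrier at 28.9 ± 0.650 FPKM with DEP, against 36.4 ± 0.648 FPKM with DMSO (log2 fold change -0.32 ± 0.03, adjusted p = 0.000177), in the sodium bicarbonate cotransporter Slc4a4 (fall of 0.28) and in the sodium-calcium exchanger Slc24a3 (fall of 0.26, adjusted p = 0.0677 without DMSO replicate 3). Among phosphate carriers Slc17a1 (NPT1), which also carries urate, rose to 6.88, 6.61 and 7.16 FPKM in DEP libraries, against 4.33, 4.33 and 4.88 FPKM in DMSO libraries (log2 fold change 0.52 ± 0.05, adjusted p = 0.000457). Slc20a2 fell (log2 fold change -0.15 ± 0.02, adjusted p = 0.00202) while its relative Slc20a1 was not called.

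Nucleotide sugar and acetyl-CoA carriers, which feed the Golgi and endoplasmic reticulum, rose in 4 and fell in 6 of 21 cases in AML12. The orphan Slc35e3 had 7.36, 7.65 and 7.55 FPKM in DEP libraries, against 4.95, 5.18 and 5.26 FPKM in DMSO libraries (log2 fold change 0.47 ± 0.03, adjusted p = 0.000137), and the rises of Slc35g1 (0.36) and Slc35a4 (0.32) came next. Slc33a1, the acetyl-CoA importer of the endoplasmic reticulum, had 10.9, 10.7 and 11.2 FPKM in DEP libraries, against 14.3, 13.4 and 12.9 FPKM in DMSO libraries (log2 fold change -0.29 ± 0.04, adjusted p = 0.00194). Slc35e4 had 28.3 ± 0.964 FPKM with DEP, against 34.2 ± 1.55 FPKM with DMSO (log2 fold change -0.26 ± 0.04, adjusted p = 0.00248). Slc35b1, the ATP carrier of the endoplasmic reticulum, fell by 0.08, and its call ended without DEP replicate 2 or 3 or DMSO replicate 1 or 2 (adjusted p between 0.0818 and 0.0882) and after TPM scaling (0.121). Of the vitamin carriers 1 of 7 was called, the thiamine importer Slc19a2 (rise of 0.17), while the folate carrier Slc19a1 and the ascorbate carrier Slc23a2 were not called. That share of 14.3% was below the 39.2% of all genes tested. Among the 4 members that carry no solute, the scaffold proteins Slc9a3r1 and Slc9a3r2, which anchor carriers at the apical membrane, rose by 0.19 and 0.25.

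In iWAT fewer members were called and rises outnumbered falls, with 5 up and 0 down among 22 tested amino acid carriers, 4 and 0 among 19 ion carriers and 2 and 0 among 7 vitamin carriers. By the same limma test 23 of 164 tested members were called (14.0%), 16 up and 7 down, while 8.54% of all 13482 genes tested were called, 4.03% up and 4.52% down. After TPM scaling the counts were 16 up and 3 down. With a filter of 1 FPKM, nearer the member level, 24 of 161 members and 1234 of 11864 genes were called. The median log2 fold change was 0.03 for members and 0.0075 for all genes tested. The median size among called members was 0.15 and the largest 0.31 on the log2(FPKM + 1) scale, and DEP and DMSO libraries did not overlap in any of the 23. Among tested members DEP libraries lay wholly above DMSO libraries in 47 and wholly below in 26, while 31.1% of all genes tested did not overlap, 17.2% with DEP above and 14.0% with DEP below.

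The number of iWAT calls rested on all 6 libraries. It was 11, 7 and 10 without DEP replicate 1, 2 and 3, and 9, 11 and 8 without DMSO replicate 1, 2 and 3. The 7 members called under each of these were all rises: Slc39a6, Slc20a1, Slc6a8, Slc19a2, Slc25a44, Slc1a4 and Slc36a1. None of the 7 falls kept its call each time. All 23 calls fell among the 136 members at the level in both lines.

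Slc39a6 (ZIP6), a zinc importer of the plasma membrane, had the smallest p of all members in iWAT, with 70.5, 73.4 and 73.5 FPKM in DEP libraries, against 60.8, 61.2 and 59.2 FPKM in DMSO libraries. Its DEP libraries were all higher (log2 fold change 0.26 ± 0.02, adjusted p = 0.00157). Slc20a1 (PiT1), a sodium-coupled phosphate importer, had 28.0, 27.8 and 27.2 FPKM in DEP libraries, against 22.7, 22.4 and 23.8 FPKM in DMSO libraries (log2 fold change 0.26 ± 0.03, adjusted p = 0.00308). Slc19a2, the thiamine importer, had 16.5, 15.8 and 16.2 FPKM in DEP libraries, against 12.2, 13.6 and 12.9 FPKM in DMSO libraries (log2 fold change 0.31 ± 0.04, adjusted p = 0.00626), the largest rise on the log2(FPKM + 1) scale, while by the ratio of mean FPKM Slc4a11 (1.297) and Slc26a11 (1.26) were above it (1.254). Slc25a44, the mitochondrial carrier of branched-chain amino acids, had 63.2, 63.5 and 64.2 FPKM in DEP libraries, against 56.8, 55.8 and 53.4 FPKM in DMSO libraries (log2 fold change 0.20 ± 0.03, adjusted p = 0.00626). All 4 were separated without overlap between DEP and DMSO libraries.

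Amino acid carriers of iWAT rose in 5 of 22 cases and fell in 0. Slc6a8, the creatine importer, was among the 5 most abundant members of iWAT and had 82.8, 81.5 and 83.3 FPKM in DEP libraries, against 73.5, 74.4 and 74.1 FPKM in DMSO libraries (log2 fold change 0.16 ± 0.02, adjusted p = 0.00318). Slc1a4 had 38.4, 37.6 and 39.6 FPKM in DEP libraries, against 33.0, 34.0 and 34.0 FPKM in DMSO libraries (log2 fold change 0.19 ± 0.03, adjusted p = 0.00745), opposite to its fall in AML12. Slc36a1 (PAT1), a proton-coupled carrier of small amino acids in the lysosome, had 10.4, 9.96 and 10.3 FPKM in DEP libraries, against 8.83, 8.87 and 8.42 FPKM in DMSO libraries (log2 fold change 0.21 ± 0.03, adjusted p = 0.0117). With a replicate block added to the fit, Slc36a1 was not called. Slc7a1 and Slc6a6 rose by 0.10 and 0.10, with adjusted p of 0.0172 for Slc7a1 and 0.0455 for Slc6a6, which reached 0.0659 and 0.124 without single DMSO libraries. Slc38a2, the most abundant carrier of the class in iWAT, was not called (adjusted p = 0.265), at 89.9 ± 0.738 FPKM with DEP, against 92.3 ± 1.39 FPKM with DMSO. Nor was Slc7a2, at 3.88 ± 0.286 FPKM with DEP, against 4.45 ± 0.185 FPKM with DMSO (adjusted p = 0.130).

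**Figure D4:**
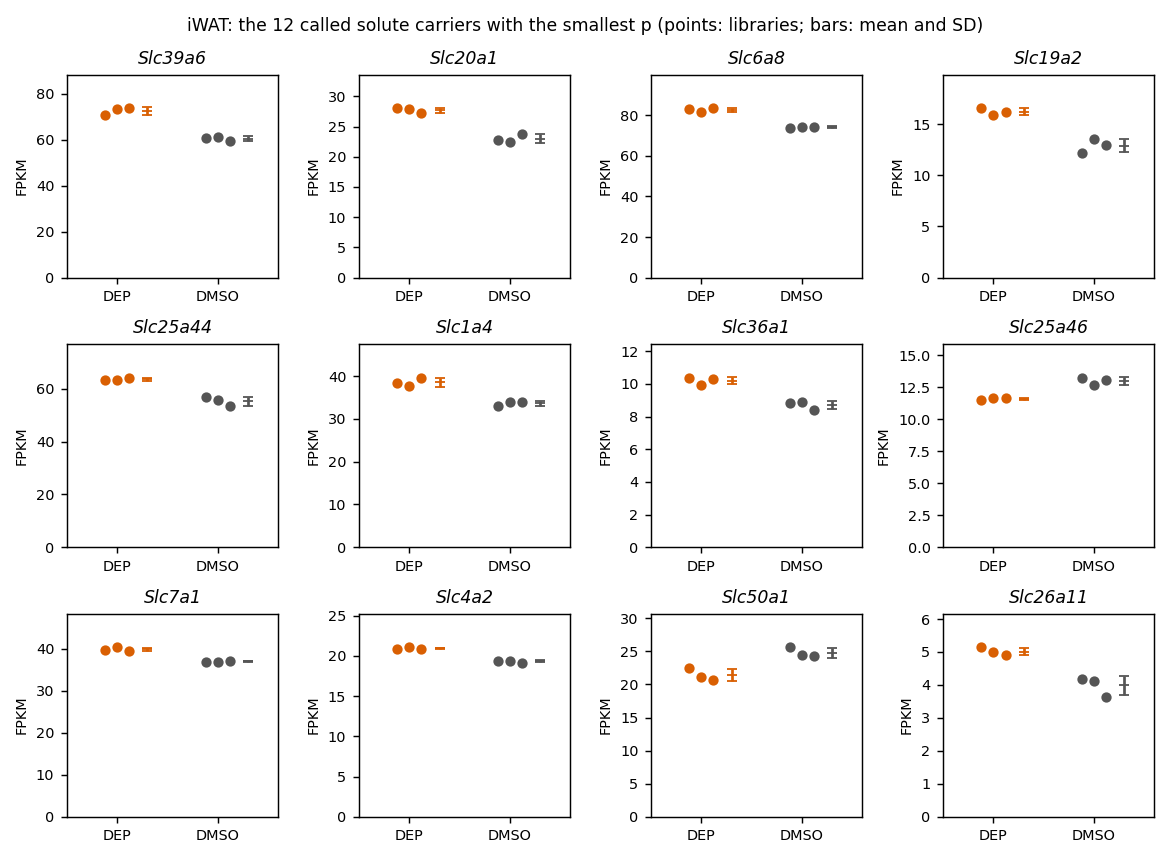
FPKM (y axis, from 0) in each iWAT library for the 12 called members with the smallest p, DEP left of DMSO, with mean and SD beside the points. In 10 panels DEP libraries lie above DMSO libraries, and for Slc25a46 and Slc50a1 they lie under them.

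Ion carriers of iWAT rose in 4 of 19 cases and fell in 0. Slc26a11, a sulfate carrier of the lysosome, had 5.14, 4.99 and 4.92 FPKM in DEP libraries, against 4.18, 4.13 and 3.64 FPKM in DMSO libraries (log2 fold change 0.27 ± 0.05, adjusted p = 0.0245). Slc4a11 had 1.93, 1.89 and 1.89 FPKM in DEP libraries, against 1.40, 1.497 and 1.504 FPKM in DMSO libraries (log2 fold change 0.23 ± 0.05, adjusted p = 0.0350), and Slc4a2 rose by 0.11. The folate carrier Slc19a1 rose by 0.12. These 4 calls each ended when single libraries were left out, with adjusted p of up to 0.0770 for Slc26a11, 0.0988 for Slc4a11, 0.0738 for Slc4a2 and 0.111 for Slc19a1.

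The 7 falls of iWAT spread over several classes. Slc50a1 had 22.5, 21.1 and 20.7 FPKM in DEP libraries, against 25.6, 24.5 and 24.2 FPKM in DMSO libraries (log2 fold change -0.20 ± 0.04, adjusted p = 0.0204), the deepest of them. Slc25a46 had 11.5, 11.7 and 11.6 FPKM in DEP libraries, against 13.2, 12.7 and 13.0 FPKM in DMSO libraries (log2 fold change -0.15 ± 0.03, adjusted p = 0.0171). Slc39a1 (ZIP1), a zinc importer abundant in both lines, had 53.7 ± 1.10 FPKM with DEP, against 58.3 ± 0.936 FPKM with DMSO (log2 fold change -0.12 ± 0.02, adjusted p = 0.0265). Slc25a1 and Slc25a11, the citrate and oxoglutarate carriers, fell by 0.12 and 0.15, and their adjusted p was 0.0714 and 0.0611 after TPM scaling. Slc33a1 and Slc35a1, the second of which brings CMP-sialic acid into the Golgi, fell by 0.14 and 0.12, with adjusted p of 0.0912 and 0.0638 after TPM scaling. Without single libraries the adjusted p reached 0.0712 for Slc50a1, 0.0658 for Slc25a46, 0.0910 for Slc39a1, 0.138 for Slc25a1, 0.142 for Slc25a11, 0.133 for Slc33a1 and 0.128 for Slc35a1. Slc35e4 rose in iWAT (log2 fold change 0.13 ± 0.03, adjusted p = 0.0284), and its call ended without any 1 library, at an adjusted p of up to 0.0927.

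Other abundant iWAT carriers did not pass the test. Slc25a4 had 164 ± 0.940 FPKM with DEP, against 172 ± 2.95 FPKM with DMSO (adjusted p = 0.0766) and Slc43a3, a nucleobase carrier at the level in iWAT alone, 67.0 ± 1.53 FPKM with DEP, against 61.7 ± 1.92 FPKM with DMSO (adjusted p = 0.0536). Slc2a1 had 44.6 ± 0.475 FPKM with DEP, against 42.6 ± 0.758 FPKM with DMSO (adjusted p = 0.110), Slc27a1 26.9 ± 0.572 FPKM with DEP, against 24.6 ± 1.23 FPKM with DMSO (adjusted p = 0.0974) and Slc48a1 67.1 ± 1.83 FPKM with DEP, against 63.3 ± 2.22 FPKM with DMSO (adjusted p = 0.166). Nucleoside, organic ion, monocarboxylate, and fatty acid and choline carriers had 0 limma calls among 4, 7, 4 and 5 tested, though 7 of these 20 had an unadjusted p below 0.05 and voom called 3. Over all genes voom called 1985 of 13466 in iWAT. Unadjusted, 60 of the 164 tested members had a limma p below 0.05. The share of all genes below that p is not given here, so neither this count nor the other unadjusted counts can be set against it.

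The response to DEP differed between the lines in 61 of 180 members tested for it by limma in a joint fit of all 12 libraries, a share of 33.9% against 29.2% of all 14651 genes tested. The log2 fold change was higher in AML12 than in iWAT in 23 members (12.8% of the 180) and lower in 38 (21.1%), against 17.6% and 11.7% of all genes. Of the 61, 10 were below the filter in 1 line, where this scale can hardly show a change, so their difference largely repeats the value of the other line. Among the 145 members tested in both lines 51 were called, 21 higher and 30 lower (14.5% and 20.7%), against 19.6% and 12.5% of 11399 genes, and 32.2% of those genes in either direction. After median centring 15 of the 180 members in the joint fit were higher and 46 lower, against 23 and 38. With a filter of 1 FPKM, 64 of the 180 members and 4267 of 12921 genes were called. The classes with the most such members were mitochondrial carriers, with 9 higher and 5 lower of 38, amino acid carriers, with 2 higher and 8 lower of 26, and metal and heme carriers, with 1 higher and 8 lower of 22.

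Slc1a4 had the smallest p of all members for this difference, which was -0.72 ± 0.03 on the log2 scale (AML12 minus iWAT, adjusted p = 1.85e-07), as it fell in AML12 and rose in iWAT. Slc6a8 (-0.36 ± 0.02, adjusted p = 1.22e-06) and Slc35e4 (-0.39 ± 0.05, adjusted p = 0.000178) were also down in AML12 and up in iWAT. Slc25a46 (0.35 ± 0.04, adjusted p = 5.54e-05) was up in AML12 and down in iWAT, as was Slc25a1, whose AML12 rise lost its call without most single libraries. The iWAT calls of Slc35e4, Slc25a46 and Slc25a1 were also lost when single libraries were left out. Slc38a2 (0.33 ± 0.02, adjusted p = 4.16e-06), Slc48a1 (-0.41 ± 0.04, adjusted p = 3.46e-05), Slc1a5 (-0.31 ± 0.03, adjusted p = 6.37e-05), Slc2a1 (-0.41 ± 0.04, adjusted p = 6.84e-05) and Slc35e3 (0.44 ± 0.05, adjusted p = 7.67e-05) were called in AML12 and not in iWAT. Slc22a18 held 0.235 to 0.437 FPKM in iWAT libraries, below the filter there, so its fall is given for AML12 alone.

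**Figure D5:**
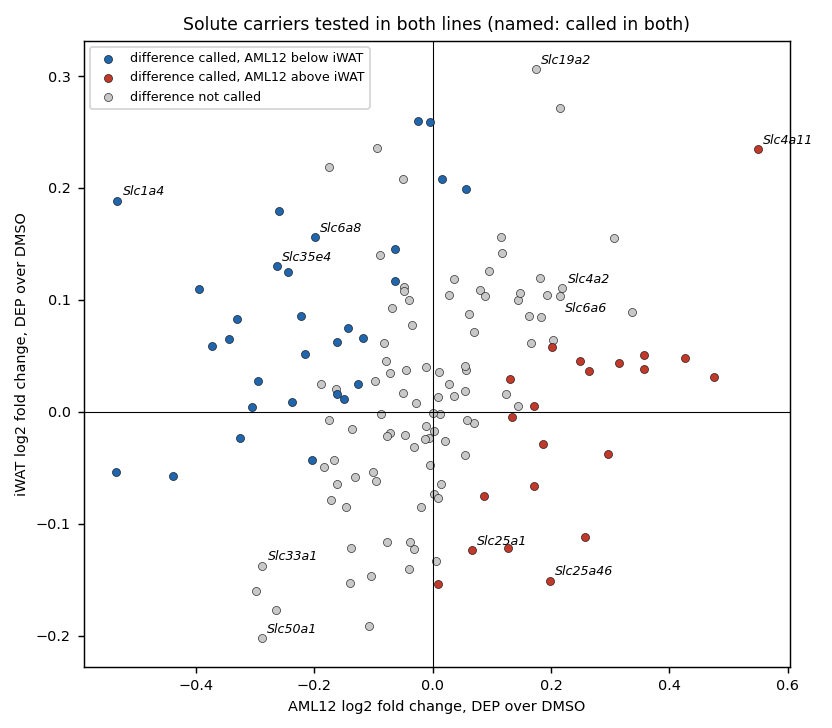
Log2 fold change of DEP over DMSO in AML12 (x axis) and iWAT (y axis) for the 145 members tested in both lines, coloured by the test of the difference between the lines. The 11 members called in both lines are named, 6 in the quadrants of equal direction and 5 in those of opposite direction.

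Of 145 members tested in both lines, 11 were called in both, 6 in the same direction. Slc6a6, Slc19a2, Slc4a11 and Slc4a2 rose in both and Slc33a1 and Slc50a1 fell in both, while 2 were up in AML12 and down in iWAT and 3 the reverse. In iWAT the calls of Slc6a6, Slc4a11, Slc4a2, Slc33a1 and Slc50a1 ended without single libraries. Among those with opposite directions, the iWAT calls of Slc25a46, Slc25a1 and Slc35e4 did too. Over all genes, 512 of 11399 tested in both lines were called in both, 306 of them in the same direction. The thiamine importer Slc19a2 kept its rise without each single library in either line, at 14.0 FPKM with DEP, against 12.3 FPKM with DMSO in AML12 and 16.2 FPKM with DEP, against 12.9 FPKM with DMSO in iWAT. Slc4a11 rose more in AML12 than in iWAT, by 0.31 ± 0.04 (adjusted p = 0.000336).

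Members at the level in 1 line were called in that line as follows. Of the 20 at the level in AML12 alone, 1 rose and 9 fell, a share of 50.0%, the same share as among the 136 at the level in both lines (32 up and 36 down). Of all genes tested in AML12 39.2% were called, 23.9% up and 15.3% down. The 9 falls include Slc28a3, which met the level through its DMSO libraries only. Of the 25 at the level in iWAT alone, 0 were called in iWAT by limma, which called 16.9% of the 136 and 8.54% of all genes tested. Among these 25, 10 had an unadjusted p below 0.05 and 4 were called by voom, which called 1985 of 13466 genes in iWAT. The share of all genes below that unadjusted p is not given here. Slc39a8, a zinc and manganese importer, was measured in iWAT only (1.87 FPKM with DEP, against 1.71 FPKM with DMSO, not called), and its AML12 values were not analysed here.

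Related genes without an Slc symbol were listed apart from the members. Their counts stand beside calls in 39.2% of all genes tested in AML12 (23.9% up, 15.3% down) and 8.54% in iWAT (4.03% up, 4.52% down). Of 24 tested genes of SLC families with other names, 7 rose and 3 fell in AML12, with the mitochondrial uncoupling protein Ucp2 at 11.4 ± 0.220 FPKM with DEP, against 9.47 ± 0.362 FPKM with DMSO (log2 fold change 0.25 ± 0.03, adjusted p = 0.00177) and the sphingosine-1-phosphate exporter Spns2 at 36.5 ± 0.852 FPKM with DEP, against 43.5 ± 0.753 FPKM with DMSO (log2 fold change -0.25 ± 0.03, adjusted p = 0.000519). In iWAT 3 of 23 rose and 0 fell, all 3 of lysosomal proteins, the cystine exporter Ctns (log2 fold change 0.18 ± 0.02, adjusted p = 0.00429), the lysophospholipid carrier Spns1 (log2 fold change 0.17 ± 0.03, adjusted p = 0.0175) and the cholesterol exporter Npc1 (log2 fold change 0.12 ± 0.03, adjusted p = 0.0368). Npc1 fell in AML12 (log2 fold change -0.16 ± 0.04, adjusted p = 0.0148). Of 4 tested organic anion transporting polypeptides (Slco) in AML12, 2 rose and 1 fell. Slco4a1, which carries thyroid hormone, had 7.83, 8.01 and 7.49 FPKM in DEP libraries, against 4.94, 4.13 and 4.31 FPKM in DMSO libraries (log2 fold change 0.69 ± 0.06, adjusted p = 0.000267), a larger shift, in log2 fold change and in ratio, than that of any member called up. The prostaglandin importer Slco2a1 had 29.8 ± 0.767 FPKM with DEP, against 34.5 ± 0.752 FPKM with DMSO (log2 fold change -0.20 ± 0.03, adjusted p = 0.00162), and 0 of 2 tested were called in iWAT by limma or voom, nor had either an unadjusted p below 0.05.

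Partner and regulator genes of carriers had 4 rises and 4 falls among 14 tested in AML12, where 39.2% of all genes tested were called. Bsg (basigin), the chaperone of lactate carriers at the cell surface, had 268, 269 and 268 FPKM in DEP libraries, against 313, 322 and 318 FPKM in DMSO libraries (log2 fold change -0.24 ± 0.02, adjusted p = 0.000140). Atp1b3, a subunit of an ion pump whose gradients power sodium-coupled carriers, rose by 0.20. Arrdc3, an arrestin-like adaptor, fell by 0.42 in AML12. In iWAT 1 of 17 rose and 1 fell, while 8.54% of all genes tested were called there. Txnip, an inhibitor of glucose uptake through GLUT1, had 33.1 ± 0.596 FPKM with DEP, against 27.5 ± 0.482 FPKM with DMSO (log2 fold change 0.26 ± 0.02, adjusted p = 0.00138), and Sgk1, a kinase that keeps carriers at the cell surface, had 9.71 ± 0.451 FPKM with DEP, against 12.7 ± 0.388 FPKM with DMSO (log2 fold change -0.36 ± 0.04, adjusted p = 0.00331).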

How the data were processed

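RNA was sequenced as stranded total RNA, per the labels' protocols, and was processed with Trimmomatic and HISAT2 on GRCm39, per the submitters' processing notes. The counting tool, its annotation and tool versions are not given in the sources used here. The authors deposited FPKM per Ensembl gene, in 1 table per line normalised separately. Symbols came from GENCODE M21 (95.1% of AML12 and 95.0% of iWAT identifiers), a GRCm38 annotation, so no coordinates of the files' build are given.

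In each line limma 3.58.1 (R 4.3.3) was fitted to log2(FPKM + 1) with an empirical Bayes trend, over genes at 0.5 FPKM or more in at least 3 libraries. The two-sided p-values were adjusted by Benjamini-Hochberg over the whole table of tested genes, with calls made below an adjusted p of 0.05. Fold changes on this scale understate those of genes near 1 FPKM. The difference between the lines was a contrast in a fit of all 12 libraries. The per-line fit was also run on simulated reads with a fixed spread, after the fits of the data, and its outcome is not given here. Whole reads (within 0.01 of a whole number) came out of FPKM and library total for 89.5% of genes with the annotated exon length and for 99.9% after a search for a length that made the values whole, so the second share is partly built in, and served voom as an alternative. Alternatives changed pseudocount, filter, scaling, trend, threshold and libraries, or added a replicate block. Python 3.11.15, numpy 2.4.6, pandas 2.3.3 and matplotlib 3.10.9 were used.

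The members, classes and lists were chosen with earlier results of these data known. Named members were the 10 largest called rises and falls per line, the smallest p and highest level per class, the 10 smallest p for the difference and a fixed set. Slc38a3, Slc38a7, Slc38a10, Slc7a6, Slc2a8, Slc37a3, Slc16a6, Slc39a4, Slc41a1, Slc22a4, Slc29a3, Slc25a3, Slc25a15, Slc25a24, Slc25a33, Slc25a39, Slc4a4, Slc24a3, Slc39a8 and Slc9a3r2 were added after their values were seen. A few named genes are not reported here. Libraries number 3 per group, which limits precision.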

Additional observations from a re-analysis of the deposited data

Results flagged for a closer look

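The log2 fold change of DEP over DMSO differed between AML12 and iWAT in 35 named members given here, all tested in both lines, by limma's test of the difference itself in the fit of 12 libraries (AML12 minus iWAT, called at a Benjamini-Hochberg adjusted p below 0.05). Values are given by class, without explanation, and the causes were not tested.

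Among amino acid carriers the difference was -0.72 for Slc1a4, -0.31 for Slc1a5, -0.36 for Slc6a8, -0.43 for Slc6a9, -0.19 for Slc36a1 and 0.33 for Slc38a2. Of metal and heme carriers it was -0.41 for Slc48a1, -0.38 for Slc39a11, -0.18 for Slc39a14, -0.26 for Slc39a6, -0.50 for Slc41a3 and -0.16 for Slc31a1. The organic ion carrier Slc17a5 gave -0.48, and sugar carriers -0.41 for Slc2a1 and 0.31 for Slc5a3. The fatty acid carrier Slc27a1 gave -0.37 and the nucleoside carrier Slc29a1 0.38. Differences of Slc16a12, Slc17a1, Slc22a18, Slc22a23, Slc28a3 and Slc44a3 are left out, since these were below the filter in iWAT.

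Mitochondrial carriers differed by 0.19 for Slc25a1, 0.23 for Slc25a10, 0.16 for Slc25a11, 0.24 for Slc25a4, 0.35 for Slc25a46 and 0.10 for Slc25a5, higher in AML12, and by -0.22 for Slc25a17 and -0.14 for Slc25a44, lower in AML12. Nucleotide sugar carriers gave 0.27 for Slc35a4, 0.44 for Slc35e3, 0.32 for Slc35g1 and -0.39 for Slc35e4. Ion carriers gave 0.31 for Slc4a11, 0.17 for Slc12a2 and -0.30 for Slc26a2, phosphate carriers -0.28 for Slc20a1 and -0.16 for Slc20a2, and the ascorbate carrier Slc23a2 0.16. With a pseudocount of 0.1 in place of 1 the adjusted p was 0.0600 for Slc25a44. Calls of Slc12a2, Slc23a2, Slc25a11 and Slc25a44 ended when single libraries were left out, with adjusted p of up to 0.0556, 0.0746, 0.0686 and 0.0897, and those of Slc12a2, Slc23a2, Slc25a11 and Slc25a5 after median centring, at 0.0650, 0.102, 0.0858 and 0.141.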

How the results depend on the processing

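In AML12 the count of members called stayed between 59 and 83 under every alternative run, against 79, and 7 classes had more falls than rises under each except at an adjusted p below 0.01. In iWAT the 23 calls (16 up and 7 down) became 10 (9 up, 1 down) with no filter on low values, 10 (9 up, 1 down) with no trend in the moderation and 6 (6 up, 0 down) at an adjusted p below 0.01. The falls numbered 3 after TPM scaling and 13 both in the fit of 12 libraries and by voom on recovered reads, which made 30 and 33 calls. Leaving out single libraries gave 7 to 11 calls in iWAT, 7 to 9 up and 0 to 4 down. The 3 iWAT classes with more falls than rises became 0 with no filter, with no trend and at an adjusted p below 0.01, 1 after TPM scaling and 0 to 2 without single libraries. For the difference between the lines, median centring left 15 members higher in AML12 and 46 lower, against 23 and 38. The causes of these shifts were not tested.

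No pairing by replicate number showed, since same-numbered DEP and DMSO libraries correlated in their deviations between -0.06 and 0.03. Correlations over all genes cannot exclude a weak pairing or one that holds for some genes only. With a replicate block 72 members were called in AML12, 7 in iWAT (6 up, 1 down, with 1 class falling more than rising) and 52 for the difference. Slc36a1 in iWAT (adjusted p = 0.0542) and Slc25a39 in AML12 were not called in those fits. Among single named members, 1068 of the AML12 values kept their side of the threshold and their direction across alternatives, 32 lost the call and 5 gained it, against 882, 144 and 11 in iWAT. No called value changed sign. Depth was high for most members, since 1 read in a 1-kb gene was worth 0.0183 to 0.0233 FPKM, and such values cover counting error only.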
